A study of Mus musculus with 21 samples.

Results

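The comparison described here is the effect of deleting 3 FoxO genes in muscle, pooled over diabetic and non-diabetic animals. It set 12 triple knockout (TKO) libraries against 9 floxed libraries, so that all 21 of the 21 libraries of the series entered 1 fit. The coefficient of interest was genotype, in an additive model that also held streptozotocin (STZ) treatment and the run of library codes in the titles. No measured value was used to choose the libraries.

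In the knockouts a Cre recombinase under the skeletal muscle actin promoter ACTA1 deleted floxed Foxo1, Foxo3 and Foxo4. The 6 FoxOTKO libraries came from such animals without STZ and the 6 STZFoxOTKO libraries from such animals after STZ. The 4 FoxOTlox and 5 STZFoxOTlox libraries came from floxed littermates under the same conditions. All animals were of a mixed C57Blk6, C57Blk6J and 129 background, and age was not given in the labels. STZ, a toxin of insulin-producing beta cells, was injected at 150 mg/kg, and females received a further 75 mg/kg on day 3. Animals without STZ received citrate buffer, and diabetic animals were kept only if random blood glucose stayed above 300 mg/dL. RNA came from quadriceps and gastrocnemius powdered together, so each library is bulk tissue in which fewer cells of a type and less RNA per cell cannot be told apart. The promoter of the Cre is active in muscle fibres, and other cells of the tissue keep intact FoxO genes.

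FoxO proteins are transcription factors that Akt, acting downstream of the insulin and IGF receptors, phosphorylates and keeps out of the nucleus. When insulin is low they enter the nucleus and switch on genes of ubiquitin ligases, autophagy and stress resistance, and also genes that feed back on insulin signalling. In skeletal muscle they are best known for their part in atrophy during fasting, diabetes and disuse.

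Total counts ranged from 3377613 to 7687823 in floxed and from 2951290 to 6234979 in knockout libraries. Mitochondrially encoded genes took 2.7 to 5.92% of the counts in floxed libraries and 3.68 to 8.46% in knockout libraries. The labelled tissue matched its markers: skeletal actin, Acta1, was at 11000 CPM or more and muscle creatine kinase, Ckm, at 3490 CPM or more in each library, where CPM is the count per 1000000 counts of the scaled library. Xist had 0 to 2 counts and the Y-linked Ddx3y 150 to 1398 counts in each library. That is the pattern of males in all libraries, although the protocol describes females too. Macrophage markers separated the genotypes almost fully. The list level of 15 such markers, the mean of their centred log2 CPM, ran from -1.03 to -0.47 in floxed libraries and from -0.63 to 2.06 in knockouts, with the highest values in libraries 20, 4, 15 and 6. Libraries 4, 15, 16 and 20, all of them knockouts, had been singled out in earlier work on these data for high macrophage markers. Results without them are therefore given for the main lists, and the named genes that lost their call without them are listed at the end. None of the 15 markers was at 0 in any library.

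Foxo4 was lost almost completely. Its level was 124 CPM in the lowest, 183 in the median and 201 in the highest floxed library, and 3.87, 6.44 and 12.7 CPM in the knockouts. Every knockout library lay far below every floxed library. The log2 fold change was -4.61 (SE 0.14, adjusted p = 1.53e-14, edgeR's quasi-likelihood test with Benjamini-Hochberg adjustment).

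Foxo1 fell by less. The lowest, median and highest floxed values were 36.4, 49.2 and 113 CPM, and the knockout values 7, 14.6 and 26.7 CPM. The groups did not overlap, and the log2 fold change was -2.08 (SE 0.18, edgeR adjusted p = 7.17e-07). Foxo3 did not pass the test, with 64.1 to 114 CPM in floxed and 73.7 to 233 CPM in knockout libraries and a log2 fold change of 0.39 (SE 0.16, edgeR adjusted p = 0.118). Counts over whole genes include exons outside the floxed part, so Foxo3 counts do not check the deletion. Foxo6, the family member that was not targeted, was at 0 to 7.1 CPM in floxed and 0.607 to 10.3 CPM in knockout libraries, which overlap widely, with a log2 fold change of 1.23 (SE 0.38, edgeR adjusted p = 0.0342). That call was lost on leaving out any one of libraries 4, 5, 6, 9, 14, 15, 17, 20 or 21 (edgeR adjusted p up to 0.0994).

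Of 12658 genes tested, 1854 passed an adjusted p of 0.05, which is 14.6% of the genes. Of these, 837 were lower in knockouts (6.61%) and 1017 were higher (8.03%). The 2 directions differed in size. The median log2 fold change was -0.64 among genes called lower and 1.10 among genes called higher, against 0.02 over all tested genes. Changes beyond 2-fold numbered 171 downward and 565 upward, and changes beyond 4-fold numbered 24 downward and 169 upward. Groups that do not overlap showed the opposite balance: 49 genes (0.387% of those tested) were below every floxed library in all knockouts, and 19 (0.15%) were above.

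The number of calls fell without libraries of high macrophage level, though not with every one of them. There were 557 calls without libraries 4, 15, 16 and 20, 251 higher and 306 lower, and 499 of these were among the 1854. Leaving out library 20 alone gave 1101, library 4 1251 and library 15 1334, while leaving out library 16 gave 1843 and floxed libraries of low macrophage level, such as 21 and 14, gave 1480 and 1528. With the macrophage level of each library added to the model, 37 genes passed, 10 higher and 27 lower, of which 36 were among the 1854. Since that level nearly separates the genotypes, the adjusted model has little information left on genotype, and the part of macrophage content in the other calls was not tested.

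Among genes with an average log2 CPM of 2 or more and a regular symbol, those that fell furthest were Foxo4, Tspan8, Pfkfb3, Chac1, Dpysl5, Kcnab1, Avil, Pik3ip1, Slc43a1 and Foxo1, in that order. Pik3ip1, on chromosome 11, encodes a transmembrane inhibitor of PI3-kinase. It was at 39.9 CPM in the lowest, 48.6 in the median and 82.8 in the highest floxed library, and at 7.42, 10.6 and 12.6 CPM in the knockouts. The genotypes were separated by a wide gap with no overlap, and the log2 fold change was -2.32 (SE 0.15, edgeR adjusted p = 1.18e-08).

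Tspan8, a tetraspanin of the cell membrane, had the largest fall after Foxo4 under this limit on abundance and symbol. Floxed libraries held 92.4, 137 and 186 CPM (lowest, median, highest) and knockouts 2.18, 10.2 and 23.4 CPM. All knockouts were below all floxed libraries (log2 fold change -3.74, SE 0.34, edgeR adjusted p = 8.75e-06). Slc43a1, a transporter of large neutral amino acids, went from 22.2, 30.8 and 53.3 CPM to 5.36, 6.52 and 13.8 CPM. Again no library overlapped (log2 fold change -2.11, SE 0.18, edgeR adjusted p = 4.92e-07).

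Other genes with the smallest p-values have varied roles. Prune1, a member of the DHH phosphoesterase family, was at 120, 141 and 182 CPM in floxed and 41.2, 53.5 and 83.5 CPM in knockout libraries, without overlap. Its log2 fold change was -1.37 (SE 0.11, edgeR adjusted p = 2.73e-07). Setd7, a lysine methyltransferase, went from 537, 683 and 980 CPM to 126, 264 and 383 CPM with no overlap (log2 fold change -1.47, SE 0.13, edgeR adjusted p = 1.31e-06). Castor2, of the family of cytosolic arginine sensors upstream of mTORC1, went from 99.6, 135 and 150 CPM to 25.8, 55.3 and 62.5 CPM, and again the groups stood apart (log2 fold change -1.24, SE 0.13, edgeR adjusted p = 6.95e-06). Ripor2, an inhibitor of the GTPase RhoA, and Lrrc2, a leucine-rich repeat protein, fell in the same manner, by 1.64 (SE 0.14) and 1.89 (SE 0.18) on the log2 scale, with edgeR adjusted p of 6.22e-07 and 2.95e-06.

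Further genes with large falls belong to fuel, redox and ion channel groups. Pfkfb3, which makes the fructose bisphosphate that stimulates glycolysis, was at 164, 720 and 1340 CPM in floxed and 30.3, 87.5 and 271 CPM in knockout libraries. The ranges overlapped between 164 and 271 CPM, and the log2 fold change was -2.96 (SE 0.34, edgeR adjusted p = 0.000147). Chac1, an enzyme that breaks down glutathione, had no overlap, at 13.8, 44.4 and 101 CPM against 2.53, 6.22 and 11.7 CPM (log2 fold change -2.90, SE 0.33, edgeR adjusted p = 3.39e-05). Kcnab1, a potassium channel beta subunit, was at 1.45 to 23.1 CPM in floxed and 0.369 to 2.43 CPM in knockout libraries, overlapping at the bottom of the floxed range (log2 fold change -2.56, SE 0.31, edgeR adjusted p = 3.39e-05).

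**Figure D1:**
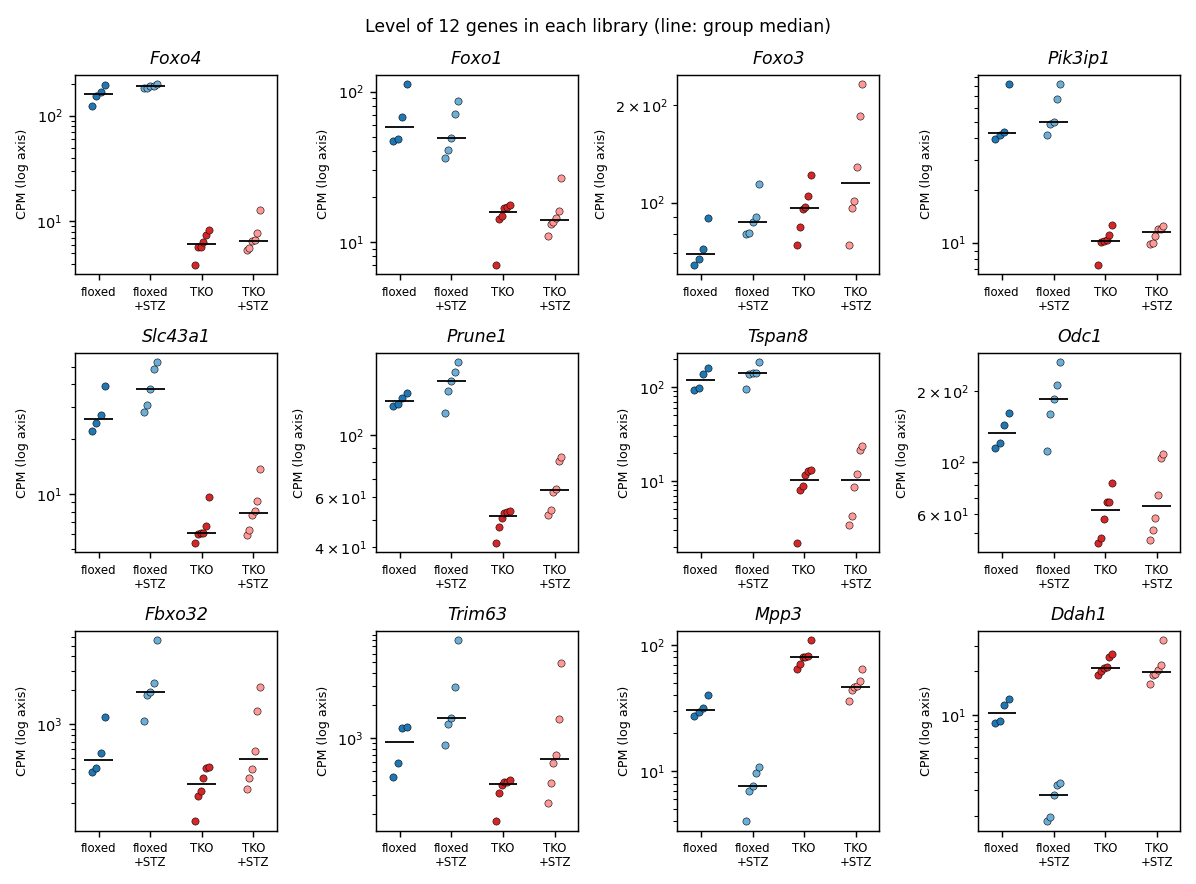
Level of 12 genes in CPM (log axis) in every library, with floxed libraries in blue and triple knockouts (TKO) in red, paler under STZ, and a line at each group median. Foxo4, Foxo1, Pik3ip1, Slc43a1, Prune1, Tspan8 and Odc1 show no overlap between the genotypes, Fbxo32 and Trim63 overlap, and Mpp3 and Ddah1 are higher in knockouts.

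The FoxO core motif GTAAACA, read on either strand (TGTTTAC on the other), was searched in RefSeq promoters of GRCm38.p6, which span 250 bases before and 50 bases after each transcription start. Of 12658 tested genes, 9698 had a promoter in the table, and 297 of these (3.06%) held the motif in at least 1 promoter. Among genes called lower 47 of 646 held it (7.28%), and among genes called higher 18 of 774 (2.33%). Of the 49 genes without overlap on the lower side 43 had a promoter and 7 of them held the motif: Tspan8, Kctd20, Plekhb1, Pnpla7, Tmem140, Ypel3 and 9330159F19Rik. The 8-letter form GTAAACAA, which contains the first, was in 0.938% of tested genes, 3.25% of those called lower and 0.388% of those called higher. A match describes letters in a window and says nothing of binding. Of these, 4 windows of 80 bases from before the start are shown because their genes fell here and stand for different roles, with the motif in capitals. They are the tetraspanin Tspan8 at chr10:115817204-115817283, the BTB protein gene Kctd20 at chr17:28953053-28953132, the ubiquitin ligase Trim63 at chr4:134314890-134314969 and Txnip, an inhibitor of glucose uptake, at chr3:96557800-96557879, all on the plus strand.
Tspan8: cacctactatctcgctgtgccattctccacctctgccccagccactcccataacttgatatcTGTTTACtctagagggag
Kctd20: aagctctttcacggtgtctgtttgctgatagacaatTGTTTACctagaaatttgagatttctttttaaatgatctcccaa
Trim63: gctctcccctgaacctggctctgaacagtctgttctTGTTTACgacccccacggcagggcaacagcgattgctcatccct
Txnip: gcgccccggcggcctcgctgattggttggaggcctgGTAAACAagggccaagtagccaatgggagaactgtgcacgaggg

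In the Tspan8 window the motif lies 18 to 12 bases before the start, and in the Trim63 window 194 to 188 bases before it. Sesn1 also held the motif, whereas the only listed promoters of Pik3ip1, Slc43a1 and Prune1 did not hold these letters. Among the gene lists, 3 of 22 FoxO-associated genes with a promoter held it (Sesn1, Txnip and Bcl2l11), and none of 27 autophagy genes did.

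Mpp3 was the only gene higher in knockouts among the 10 named for the smallest p. This gene, a membrane scaffold protein of the guanylate kinase family, was at 4, 10.9 and 40.4 CPM in floxed and 36.1, 64.8 and 110 CPM in knockout libraries. Only the edges of the groups overlapped, and the log2 fold change was 1.99 (SE 0.19, edgeR adjusted p = 5.58e-06). Ddah1, which degrades inhibitors of nitric oxide synthase, went from 1.82, 3.36 and 12.8 CPM to 16.3, 20.7 and 33 CPM with no overlap (log2 fold change 1.97, SE 0.26, edgeR adjusted p = 9.46e-05). Both genes kept their call in every alternative that was run, including the fit with the macrophage level.

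The highest fold changes, under the same limit on abundance, belonged to genes low in floxed muscle, among them Mmp12, Mymk, Atp6v0d2, Itgax, Chrng, Spp1, Trem2, C1qtnf3 and Cd84. Spp1, which encodes osteopontin, was at 0.689, 2.5 and 12.2 CPM in floxed and 5.6, 59.9 and 769 CPM in knockout libraries. The groups overlapped only between 5.6 and 12.2 CPM (log2 fold change 5.54, SE 0.81, edgeR adjusted p = 0.000816). Mmp12, the macrophage elastase, was at 0 to 0.545 CPM in floxed and at 2.38, 10 and 135 CPM in knockout libraries, with no overlap (edgeR adjusted p = 0.000263). Mymk, the membrane protein that drives fusion of muscle precursor cells, was at 0 to 0.172 CPM in floxed and 0.181, 1.91 and 51 CPM in knockout libraries. It showed no overlap by a narrow margin (edgeR adjusted p = 2.42e-05). No fold is given for either, since floxed libraries held few or no reads. Trem2, Itgax and Cd84, all receptors of myeloid cells, also rose without overlap.

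Among the genes called, the effect was alike in direction in both STZ states. Of the 1854 genes called, 1853 had the same sign without and under STZ, both taken from a model of the 4 group means plus run, which the pooled call itself favours. Tested by state, 92 genes passed without STZ (0.727%) and 1068 under STZ (8.44%), and 949 of the pooled calls passed in neither. No gene passed the test of a difference between both effects (0%) by edgeR, the smallest adjusted p being 0.191, with 652 genes at an unadjusted p under 0.05. The same test called 0 genes by limma voom and 15 by DESeq2, and 1 (Ddah1) by edgeR without the run. Of the pooled calls, 126 had an unadjusted interaction p under 0.05.

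The 6 genes with the smallest interaction p were Ddah1, Map2k6, Gstm1, Acad12, Gm38158 and Ptpn3. For Ddah1 the log2 fold change was 1.12 (SE 0.22) without STZ and 2.97 (SE 0.24) under STZ (edgeR adjusted p of the difference = 0.191). Gstm1, a glutathione transferase, had -0.46 (SE 0.16) without and -1.57 (SE 0.16) under STZ (edgeR adjusted p of the difference = 0.369), and Gstm1 reads may be shared with its close copy Gstm2, which had -0.43 and -1.53. Foxo4 and Tspan8 gave nearly equal estimates, -4.63 and -4.59 for Foxo4 and -3.77 and -3.71 for Tspan8. Avil, an actin-binding protein, had -1.45 (SE 0.32) and -3.13 (SE 0.30), with an edgeR adjusted p of 0.604 for the difference.

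**Figure D2:**
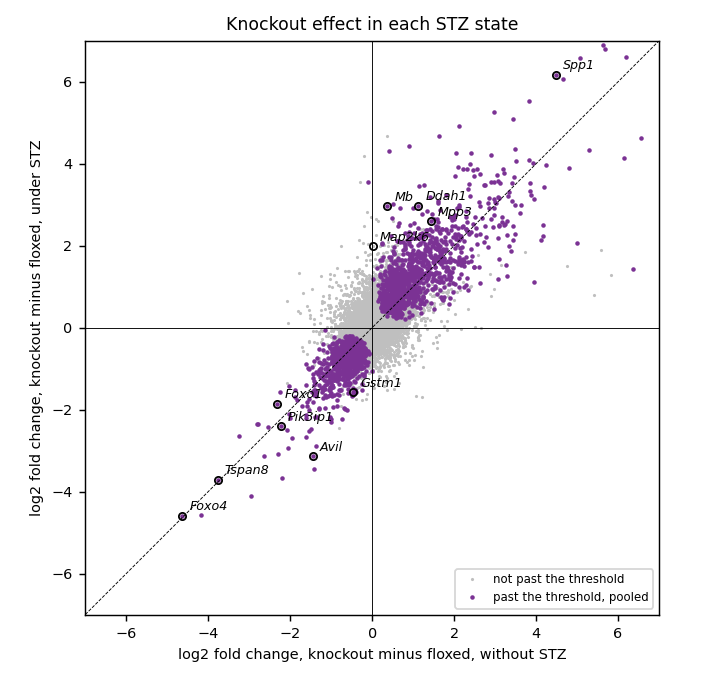
Log2 fold change of knockout minus floxed for each tested gene without STZ (x axis) and under STZ (y axis), with genes past the pooled threshold in purple, named genes ringed and the line of equal effects dashed; 4 genes lie outside the axes. Purple points fall in the quadrants of equal sign for all but 1 of the 1854 genes, and Ddah1, Mb and Map2k6 lie above the dashed line.

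Within-run differences gave the same picture for the genes called lower. The 6 runs hold 8 combinations of run and STZ state with both genotypes. All 8 differences were negative for 511 of the 837 genes called lower (61.1%), against 679 of all tested genes (5.36%). All 8 were positive for 449 of the 1017 called higher (44.1%), against 544 of all tested genes (4.3%). These counts use the libraries of the test itself and are a description. For Fbxo32, by contrast, 7 of 8 differences were negative, and for Col3a1 7 of 8 were positive.

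**Figure D3:**
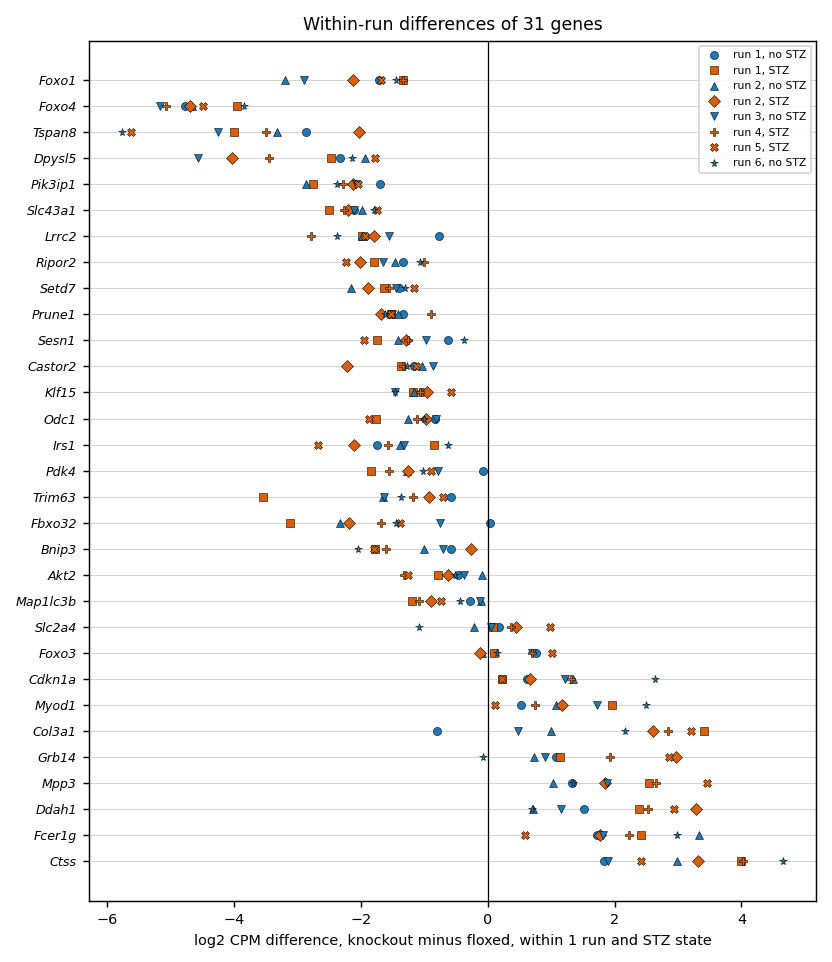
Difference in log2 CPM between knockout and floxed libraries of the same run and STZ state for 31 genes, with the symbol marking the run and blue or orange marking the STZ state. All 8 symbols lie left of 0 from Foxo1 through Pdk4, and all 8 right of 0 for Mpp3, Ddah1, Fcer1g, Ctss, Myod1 and Cdkn1a.

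Genes that other work ties to FoxO in growth arrest and stress fell together. Of 25 listed, 15 passed the test downward and none upward, with a median log2 fold change of -0.51 against 0.02 over all tested genes. The list was chosen with results of these data known. For this list and those below, the shares among all tested genes were 6.61% called lower and 8.03% called higher. No list was tested against these shares, and a gene can be a member of several lists. Sesn1, a stress-induced inhibitor of mTORC1, was at 46.3, 82.2 and 234 CPM in floxed and 24, 33.7 and 60.4 CPM in knockout libraries, overlapping between 46.3 and 60.4 CPM (log2 fold change -1.31, SE 0.16, edgeR adjusted p = 3.11e-05). Klf15, a transcription factor of amino acid breakdown, went from 23.3, 33.8 and 48.5 CPM to 8.14, 15.9 and 32.4 CPM, so that the groups overlapped in part (log2 fold change -1.20, SE 0.16, edgeR adjusted p = 5.75e-05). Cited2, a transcriptional co-regulator, fell by 1.09 (SE 0.13, edgeR adjusted p = 3.53e-05). Cdkn1a, which encodes the cell cycle inhibitor p21, did not pass, at 28.6 to 283 CPM in floxed and 45.1 to 328 CPM in knockout libraries (log2 fold change 1.06, SE 0.35, edgeR adjusted p = 0.057). Without libraries 4, 15, 16 and 20 the list had 9 calls and a median of -0.52, and with the macrophage level 2 calls and a median of -0.42.

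Ubiquitin ligases of muscle atrophy fell in part. Of 20 tested, 6 were called lower, none higher, and the median log2 fold change was -0.27. Fbxo32 (atrogin-1) was at 374, 1160 and 5600 CPM in floxed and 137, 367 and 2160 CPM in knockout libraries. Trim63 (MuRF1) was at 436, 1270 and 8030 CPM and at 170, 394 and 4920 CPM. Both overlapped widely between genotypes, and the log2 fold changes were -1.56 (SE 0.34, edgeR adjusted p = 0.00749) and -1.47 (SE 0.34, edgeR adjusted p = 0.00797). The STZ coefficients in the same fit were 1.32 and 1.17. Without libraries 4, 15, 16 and 20, Fbxo32 missed the threshold (log2 fold change -1.12, edgeR adjusted p = 0.0768) and Trim63 was the only member called, and without the run Trim63 missed it (edgeR adjusted p = 0.0931). Ubr2, Wwp1, Traf6 and Fbxo31 were the other members called. Fbxo31 lost its call on leaving out library 4, 17 or 20 (edgeR adjusted p up to 0.0841). The muscle atrophy ubiquitin ligases had 3 calls without library 4 or 20 and 4 without any one of 12 other libraries, and with the macrophage level they had 0 calls and a median of -0.10.

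Autophagy genes showed a modest fall spread over steps of the pathway. Of 34 tested, 11 were called lower and none higher, with a median of -0.17. They include the initiation kinase Ulk1 with its partners Atg13 and Rb1cc1, the vesicle protein Atg9a, the LC3 family members Map1lc3b and Gabarapl1, and the cargo receptors Sqstm1, Bnip3 and Bnip3l. Bnip3, a mitophagy receptor, was at 143, 232 and 795 CPM in floxed and 51.9, 108 and 277 CPM in knockout libraries, with overlap (log2 fold change -1.14, SE 0.21, edgeR adjusted p = 0.00146). Map1lc3b went from 149, 214 and 278 CPM to 106, 130 and 224 CPM, also with overlap (log2 fold change -0.65, SE 0.13, edgeR adjusted p = 0.00231). Atg9a was at 80.1 to 111 CPM against 32.8 to 85.7 CPM (log2 fold change -0.77, SE 0.13, edgeR adjusted p = 0.00073). Only 3 calls were left without libraries 4, 15, 16 and 20, where Map1lc3b was at an edgeR adjusted p of 0.0716, and with the macrophage level there were 0 calls and a median of -0.04.

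Lysosomal genes moved in both directions. Of 30 tested, 8 were higher, 2 lower and the median was 0.22. The 2 that fell were Gaa, the enzyme of lysosomal glycogen breakdown (log2 fold change -0.83, SE 0.16, edgeR adjusted p = 0.00254), and Npc1, a cholesterol exporter (log2 fold change -1.23, SE 0.23, edgeR adjusted p = 0.00173). Among those that rose were Ctsa, Ctsb, Hexa, Gusb, Npc2 and Asah1, soluble proteins that macrophages also express. Npc2 was at 15.5 to 21.3 CPM in floxed and 16.4 to 45.1 CPM in knockout libraries (log2 fold change 0.71, SE 0.15, edgeR adjusted p = 0.00325). None of the 8 was called without libraries 4, 15, 16 and 20, while Gaa and Npc1 were. Which cells the rise came from was not tested. On leaving out single libraries the lysosome list had 4 higher calls without 4, 14 or 20 and 5 without 1 or 15. Of 32 proteasome genes 1 was called, the activator subunit Psme4, which was at 583, 755 and 1450 CPM in floxed and 208, 419 and 658 CPM in knockout libraries with a narrow overlap (log2 fold change -1.13, SE 0.17, edgeR adjusted p = 0.000238). The median of the proteasome list was -0.03.

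Genes of insulin, PI3-kinase, Akt and mTOR signalling were lower at several levels of the pathway. Of 38 tested, 17 were called lower and 1 higher, with a median log2 fold change of -0.40. Insr, Irs2, Pik3ip1, Rictor, Eif4ebp1, Ddit4 and Sesn1 were also counted as lower in the list of FoxO-associated genes, so these lists are not separate sets. At the receptors, Insr was at 154, 212 and 503 CPM in floxed and 51.6, 123 and 248 CPM in knockout libraries, with overlap (log2 fold change -0.96, SE 0.16, edgeR adjusted p = 0.000761). Igf1r fell by 0.99 (SE 0.20, edgeR adjusted p = 0.00263). Irs1, the adaptor that links receptor to PI3-kinase, went from 42, 73.7 and 112 CPM to 13.4, 30.3 and 60.8 CPM, overlapping in part (log2 fold change -1.30, SE 0.24, edgeR adjusted p = 0.00123).

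Further down, Akt2, the main Akt kinase of insulin-driven glucose uptake, was at 138, 184 and 277 CPM in floxed and 96.8, 113 and 139 CPM in knockouts. The groups met only at 138 to 139 CPM (log2 fold change -0.71, SE 0.13, edgeR adjusted p = 0.00141). Brakes on the pathway fell as well: besides Pik3ip1 and Sesn1 above, these were Tsc1, Deptor, Ddit4, Akt1s1, Eif4ebp1 and Eif4ebp2. Tsc1, which restrains mTORC1, fell by 0.98 (SE 0.14, edgeR adjusted p = 0.000133), and Eif4ebp1, a repressor of translation, was at 12.5 to 151 CPM against 3.79 to 43 CPM (log2 fold change -1.11, SE 0.28, edgeR adjusted p = 0.0112). The Eif4ebp1 call was lost without libraries 4, 15, 16 and 20 (edgeR adjusted p = 0.0569). Grb14, an adaptor that inhibits the insulin receptor, was the 1 member that rose. It was at 2.36, 11.1 and 22.7 CPM in floxed and 19.4, 37.7 and 57.9 CPM in knockout libraries, nearly without overlap (log2 fold change 1.57, SE 0.28, edgeR adjusted p = 0.00176). Without libraries 4, 15, 16 and 20 the list had 11 lower and 1 higher, and with the macrophage level Pik3ip1 and Sesn1 alone were called.

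Genes of fuel use gave calls in both directions, at a share near that of all tested genes or below it, which was not tested as a difference. Of 34 genes of glucose transport, glycolysis and glycogen, 4 were lower (Pfkfb3, Pdk4, Pdk2 and Gyg) and 1 higher (Pdk3), with a median of 0.11, where 14.6% of all tested genes were called. The calls of Pdk2 and Pdk3 were lost without libraries 4, 15, 16 and 20 (edgeR adjusted p of 0.123 and 0.132). Pdk4, a kinase that shuts off pyruvate dehydrogenase, was at 432, 2050 and 4200 CPM in floxed and 212, 933 and 2510 CPM in knockouts, with wide overlap (log2 fold change -1.21, SE 0.19, edgeR adjusted p = 0.000416). The STZ coefficient of Pdk4 was 1.68 in the same fit. Slc2a4, the insulin-responsive glucose transporter, did not pass (log2 fold change 0.11, SE 0.16, edgeR adjusted p = 0.71). Of 37 genes of fatty acid oxidation and ketone use 3 were lower (Acot2, Lpl and Mlycd) and 1 was higher (Plin2), with a median of -0.10. Without libraries 4, 15, 16 and 20 only 1 of these, Acot2, was called. Plin2 also lost its call on leaving out any one of 12 libraries and Mlycd on leaving out any one of 7 (edgeR adjusted p up to 0.113 and 0.0918), and both lost it without the run (0.12 and 0.279). None of 37 complex I genes was called, and 1 of 39 genes of complexes II to V was (Cox7c), with medians of 0.19 and 0.24. In complex I 0 genes were at an unadjusted p under 0.05 by edgeR, and DESeq2 and limma voom called 0. Cox7c was at 565 CPM in library 8 and at most 134 CPM in the other STZFoxOTKO libraries. Its call was kept without library 8 but lost on leaving out any one of 12 other libraries (edgeR adjusted p up to 0.103).

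Breakdown of branched-chain amino acids was lower in part: 7 of 22 genes were called lower, none higher, and the median was -0.28. Aldh6a1, an enzyme of the valine branch, was at 158, 228 and 312 CPM in floxed and 69.3, 138 and 205 CPM in knockout libraries (log2 fold change -0.92, SE 0.14, edgeR adjusted p = 0.000379). The others called were Acadsb, Bckdhb, Dbt, Hibadh, Mut and Ppm1k, and 2 of the 7 were called without libraries 4, 15, 16 and 20. Of 12 genes of polyamine metabolism 3 fell. Odc1, the first enzyme of polyamine synthesis, went from 111, 159 and 266 CPM to 45.1, 62.7 and 108 CPM with no overlap (log2 fold change -1.27, SE 0.15, edgeR adjusted p = 2.54e-05). The other 2, Smox and Amd1, were less stable: Smox lost its call on leaving out library 4, 9, 14 or 20 (edgeR adjusted p up to 0.0883), and Amd1 on leaving out any one of 15 libraries (edgeR adjusted p up to 0.0968). Among 15 glucocorticoid-induced genes 4 were lower (Klf15, Cebpd, Glul and Errfi1) and 1 higher, with a median of -0.23, and 2 lower and none higher without libraries 4, 15, 16 and 20. The higher one, Mt2, which encodes a metallothionein, was at 4.42, 14.7 and 123 CPM in floxed and 7.4, 56 and 273 CPM in knockouts, with wide overlap (log2 fold change 1.87, SE 0.55, edgeR adjusted p = 0.0468). Glul, the glutamine synthetase gene, was at 353, 555 and 751 CPM in floxed and 130, 260 and 505 CPM in knockouts (log2 fold change -0.98, SE 0.20, edgeR adjusted p = 0.00319).

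Antioxidant and glutathione genes split, with 4 higher and 5 lower of 27 tested and a median of 0.08 (2 higher without library 20, and 1 higher and 2 lower without libraries 4, 15, 16 and 20). Gpx1, a glutathione peroxidase, rose by 1.07 (SE 0.22, edgeR adjusted p = 0.00359). That call was lost without the run (edgeR adjusted p = 0.181), without libraries 4, 15, 16 and 20 (0.0537) and with the macrophage level, where the log2 fold change was 0.27 (edgeR adjusted p = 0.865). Gstm1 fell by 1.04 (SE 0.16, edgeR adjusted p = 0.000432). Growth factor signalling also split. Igfbp5, an IGF-binding protein, was at 61.6, 721 and 1520 CPM in floxed and 690, 2040 and 2910 CPM in knockouts, overlapping, with the lowest floxed value in library 17 (log2 fold change 1.36, SE 0.30, edgeR adjusted p = 0.0112). Acvr2a, a receptor for myostatin and activin, fell by 0.69 (SE 0.16, edgeR adjusted p = 0.00698), and that call was lost without libraries 4, 15, 16 and 20 (edgeR adjusted p = 0.126). None of 39 cytosolic ribosomal protein genes was called by edgeR, DESeq2 or limma voom, with a median of 0.17 and 7 genes at an unadjusted edgeR p under 0.05.

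**Figure D4:**
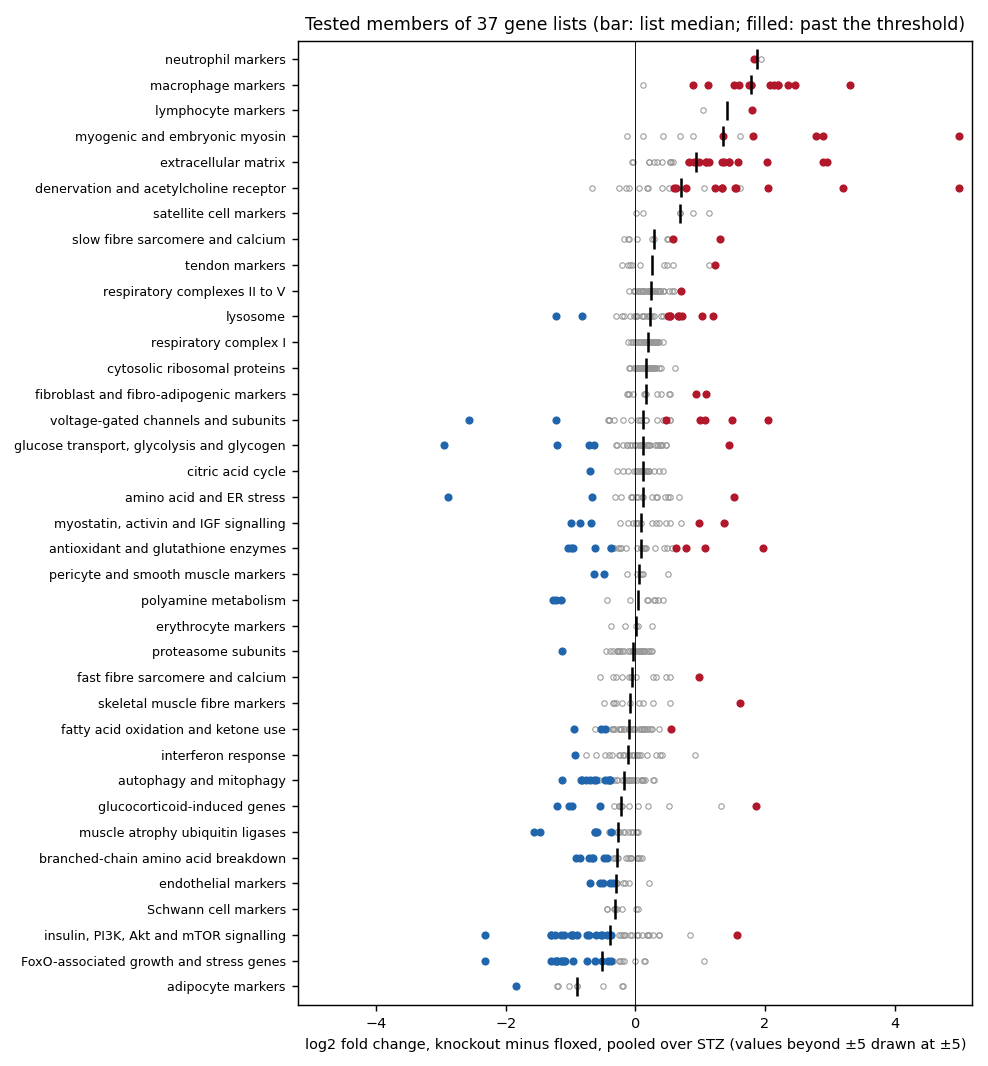
Log2 fold change, knockout minus floxed, of each tested member of 37 gene lists, ordered by list median (black bar), with members past the threshold filled in blue (lower) or red (higher) and others open. FoxO-associated and insulin signalling lists lean to the left, and macrophage, extracellular matrix, denervation and embryonic myosin lists lean to the right.

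Macrophage markers rose as a group. Of 15 tested, 14 were called higher, none lower, and the median log2 fold change was 1.79. The complement genes C1qa, C1qb and C1qc, the growth factor receptor gene Csf1r and Adgre1, which encodes the surface marker F4/80, were among them, and Cd163 was the member not called. Fcer1g, a signalling chain of immune receptors, was at 2.23, 3.9 and 4.83 CPM in floxed and 5.24, 12.5 and 41 CPM in knockouts with no overlap (log2 fold change 2.15, SE 0.29, edgeR adjusted p = 8.53e-05). Ctss, a lysosomal protease of antigen-presenting cells, went from 4.36, 6.02 and 9.2 CPM to 6.14, 36.9 and 152 CPM, overlapping at the edge (log2 fold change 3.30, SE 0.52, edgeR adjusted p = 0.00088). The count was 7 of 15 and the median 1.08 without libraries 4, 15, 16 and 20. Since these knockouts were singled out for high macrophage markers, a fall on leaving them out was built into that choice. Of 7 neutrophil and 10 lymphocyte markers only 2 of each were tested, and 1 of each was called (Csf3r and Ptprc). Both calls were lost on leaving out library 4 or 20 alone (edgeR adjusted p up to 0.112 and 0.0786), and both signs turned with the macrophage level.

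Genes of the denervation response and of immature fibres rose beside them. Of 22 denervation and acetylcholine receptor genes 11 were called higher, none lower, with a median of 0.71. Chrna1, the alpha subunit of the muscle receptor, was at 12.7, 25 and 63.6 CPM in floxed and 28, 57.1 and 241 CPM in knockout libraries, with overlap and with the highest value in library 20 (log2 fold change 1.53, SE 0.37, edgeR adjusted p = 0.0128). Of 11 myogenic and embryonic myosin genes 5 were higher, with a median of 1.35. Myod1, a transcription factor of muscle identity, was at 4.94, 9.47 and 17.8 CPM and at 12.1, 21.1 and 67.2 CPM (log2 fold change 1.35, SE 0.25, edgeR adjusted p = 0.00127). Myh3, the embryonic myosin heavy chain, was at 4.47 to 45.3 CPM in floxed and 10.5, 42.4 and 1060 CPM in knockouts, with the 1060 CPM in library 20. Its call (log2 fold change 2.79, SE 0.73, edgeR adjusted p = 0.0307) was lost on leaving out library 1, 3, 4, 15, 19 or 20 (edgeR adjusted p up to 0.0735).

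The counts of both lists fell on leaving out single libraries of either genotype, of high or of low macrophage level. The denervation list had 5 calls without library 20, 6 without library 4, 9 or 15, and 7 without 1, 3, 14, 19 or 21. The myogenic and embryonic myosin list had 2 without library 4 and 3 without 1, 3, 15, 19 or 20. Without all of libraries 4, 15, 16 and 20 the counts were 3 of the denervation genes with a median of 0.54 and 2 of the myogenic genes with a median of 0.54. With the macrophage level in the model neither list had a call, and the medians were 0.19 for the denervation and -0.10 for the myogenic list. Satellite cell markers, a list that shares roles with the myogenic genes, had none of 6 called by edgeR and a median of 0.69, with 4 at an unadjusted p under 0.05 and 1 called by DESeq2 and by limma voom. The part of macrophage content in these results was not tested.

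Extracellular matrix genes were higher as well. Of 30 tested, 14 were called higher, none lower, with a median of 0.94. Col3a1, a fibrillar collagen, was at 36.2, 186 and 894 CPM in floxed and 99.3, 649 and 3690 CPM in knockouts, with wide overlap (log2 fold change 2.02, SE 0.45, edgeR adjusted p = 0.00959), and its call was lost without library 20 (edgeR adjusted p = 0.0514). Bgn, the proteoglycan biglycan, went from 75.1, 96.3 and 163 CPM to 98.9, 182 and 694 CPM, with overlap (log2 fold change 1.34, SE 0.27, edgeR adjusted p = 0.0037). The list had 3 calls without library 20, 7 without library 4 and 9 without library 14. Without libraries 4, 15, 16 and 20 it had 1 call and a median of 0.26, and with the macrophage level it had 0 calls and the median turned to -0.28. Fibroblast markers had 2 of 13 called higher (Lum and Mfap5) with a median of 0.16, and tendon markers 1 of 10 (Scx) with a median of 0.26. Counts of 2 and 1 are too few to set against the 8.03% called higher among all tested genes, and no such test was run. Lum lost its call on leaving out any one of 10 libraries (edgeR adjusted p up to 0.127) and Scx without library 7, 9, 14 or 20 (edgeR adjusted p up to 0.123). Neither list had a call without libraries 4, 15, 16 and 20, and their medians there were 0.01 and -0.21.

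**Figure D5:**
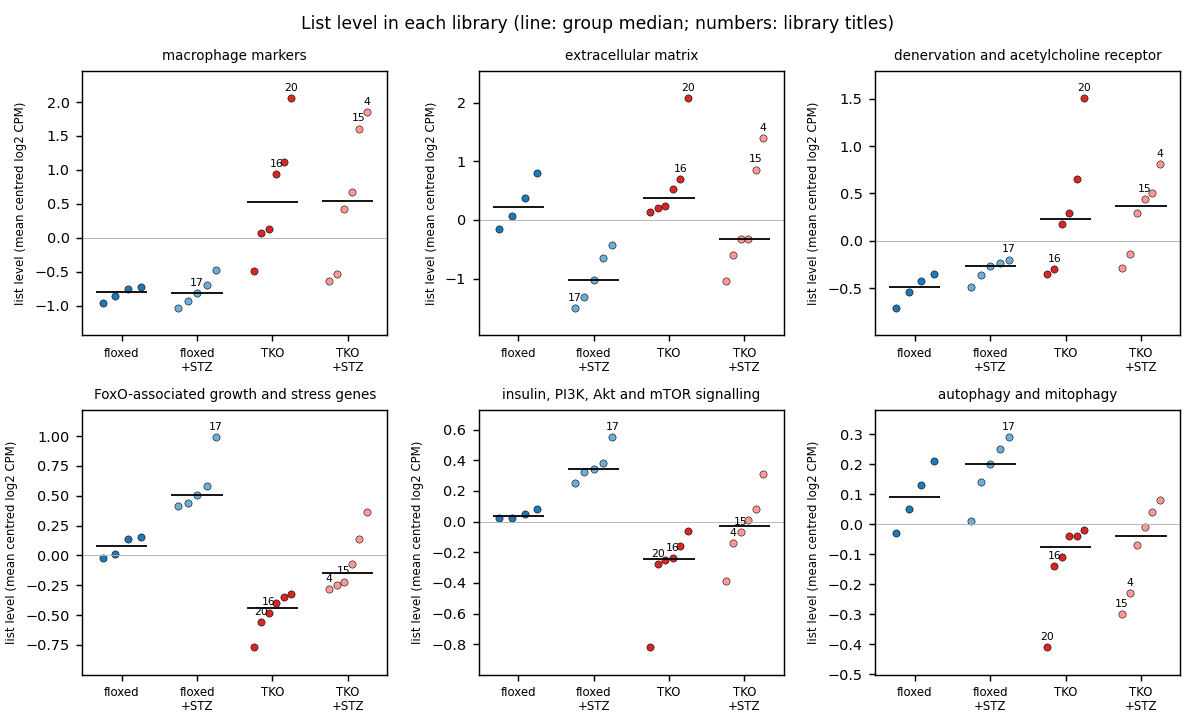
List level (mean centred log2 CPM of the members) in each library for 6 lists, by genotype and STZ, with a line at each group median and the titles of libraries 4, 15, 16, 17 and 20 printed. Libraries 20 and 4 are highest for macrophage, extracellular matrix and denervation lists, and knockouts are lower than floxed libraries of the same STZ state for most libraries of the 3 lower panels.

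Endothelial markers leaned the other way. Of 14 endothelial markers 5 were called lower (Cdh5, Flt1, Tie1, Emcn and Ptprb), none higher, and the median was -0.30. Among all tested genes 6.61% were called lower. Tie1, an endothelial receptor kinase, was at 38.4, 50.3 and 76.3 CPM in floxed and 29.8, 39 and 56 CPM in knockouts, with overlap (log2 fold change -0.39, SE 0.09, edgeR adjusted p = 0.00598). The list had 3 calls without library 20, 1 without libraries 4, 15, 16 and 20 and 1 without the run. Of 8 pericyte and smooth muscle markers 2 were called lower (Myh11 and Rgs5), but the median was 0.05 with 5 members positive, and neither was called without libraries 4, 15, 16 and 20. Adipocyte markers had 1 of 9 called (Adrb3, lower) with a median of -0.90 and no positive member, and Schwann cell and erythrocyte markers had none called by edgeR, DESeq2 or limma voom, with 1 of 9 and 0 of 5 at an unadjusted edgeR p under 0.05.

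Sarcomere genes were called at shares not far from that of all tested genes (14.6%). Of 14 fast fibre genes 1 was called (Casq1, higher) and of 11 slow fibre genes 2 (Casq2 and Mybpc1, higher), with medians of -0.06 and 0.29. Casq1, the calcium store protein of fast fibres, was at 372, 2240 and 4840 CPM in floxed and 2360, 4130 and 7360 CPM in knockouts, and its call (log2 fold change 0.98, SE 0.27, edgeR adjusted p = 0.0363) was lost on leaving out any one of 8 libraries (edgeR adjusted p up to 0.0864). Mb, myoglobin, was the only fibre marker called, at 20.9, 350 and 1400 CPM against 726, 1230 and 2160 CPM. Its state-wise log2 fold changes were 0.37 (SE 0.41) without STZ and 2.96 (SE 0.39) under STZ, the pooled value was 1.62 (SE 0.43, edgeR adjusted p = 0.0394), and the pooled call was lost on leaving out any one of 9 libraries (edgeR adjusted p up to 0.1) or libraries 4, 15, 16 and 20 together (0.11). Among ion channels Scn3b, a sodium channel beta subunit, rose by 1.48 (SE 0.26, edgeR adjusted p = 0.000973) and Kcnc4, a potassium channel, fell by 1.23 (SE 0.15, edgeR adjusted p = 4.22e-05).

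Of 127 named genes 112 were called, and 14 of these kept their call in every alternative: Foxo1, Foxo4, Sesn1, Tspan8, Dpysl5, Pik3ip1, Slc43a1, Prune1, Ripor2, Setd7, Lrrc2 and Castor2, all lower, and Mpp3 and Ddah1, both higher. Leaving out any single library ended no call for 86 of the 112. Adding the macrophage level ended 98 of them, and leaving out libraries 4, 15, 16 and 20 ended 45. As said above, the macrophage level nearly separates the genotypes, so that fit has little information left on genotype. The level is also built from markers that include the named genes Fcer1g, Fcgr3, Tyrobp and Ctss, which are among the 98.

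The 45 that lost their call without libraries 4, 15, 16 and 20 hold both directions. The higher ones were Foxo6, Npc2, Pdk3, Plin2, Cox7c, Psat1, Gpx1, Fstl1, Sln, Myl4, Myh3, Casq2, Cacna2d4, Timp1, Mmp2, Col3a1, Mb, Ptprc, Mfap5, Lum, Scx and Ptpn3. The lower ones were Fbxo32, Eif4ebp1, Map1lc3b, Ubr2, Fbxo31, Sqstm1, Pdk2, Lpl, Mlycd, Idh2, Bckdhb, Hibadh, Smox, Amd1, Cebpd, Errfi1, Acvr2a, Ptprb, Tie1, Flt1, Adrb3, Rgs5 and Myh11. Atp6v0d2, Chrng, C1qtnf3 and Csf3r did not pass the filter on low counts there. That fit holds fewer libraries, so a call can be lost there without a smaller effect. Most of the 45 estimates moved toward 0, as for Myl4 (log2 fold change 2.90 to 1.17). Those of Mb (1.62 to 1.92), Cox7c (0.70 to 0.89), Ptpn3 (0.61 to 0.71) and Errfi1 (-0.55 to -0.56) did not. Beside the genes described above, calls were lost on leaving out library 4 (Myl4, Casq2 and Cacna2d4), 9 (Mybpc1 and Gbp7), 20 (Flt1), 4 or 20 (C1qtnf3), 1 or 14 (Adrb3), 1, 9 or 17 (Errfi1), any one of 9 libraries (Psat1) and any one of 7 (Ptpn3), at edgeR adjusted p of at most 0.087.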

How the data were processed

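RNA-seq counts per Ensembl gene were deposited by the authors without normalization in 1 table of 46071 genes. Per the submitters' processing notes they used STAR, featureCounts and GRCm38.p4, with versions, annotation and strand setting not given in the sources used here, so a gene and an antisense or near-identical partner may share reads. Symbols and coordinates came from GENCODE M21 on GRCm38, and 45143 identifiers matched. Counts of 21 libraries were filtered with filterByExpr, scaled by TMM and fitted with robust quasi-likelihood models in edgeR 4.0.16 (R 4.3.3), with 13 residual degrees of freedom and a biological coefficient of variation of 0.27. Tests were two-sided with Benjamini-Hochberg adjustment over 12658 genes. The run is a stretch of library codes with steps of at most 2, giving 6 runs that the labels do not call batches. Title numbers are unique and pair no libraries, and the labels do not say that each library is a separate animal, so p-values measure the spread between these libraries. List levels use a prior count of 2. Alternatives used limma 3.58.1, DESeq2 1.42.0, other scalings, filters, covariates and subsets of libraries. The fit was tested on simulated data.

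The comparison, members, gene lists and core genes were chosen with earlier results of these data known. Named genes were the FoxO genes, 13 core genes, the 10 highest and 10 lowest log2 fold changes and the 10 smallest p among called genes whose average log2 CPM reached 2 (no predicted models, no genes of chromosomes X or Y except Foxo4), up to 4 called members per list by smallest p (2 where none passed), and the 6 smallest interaction p. Other genes, including members of lists given by name only, the promoter examples and Gm38098, were picked after their values were seen. A few genes that met the rule, or belong to a list, are counted in the lists but are not reported here by name.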

Additional observations from a re-analysis of the deposited data

Results flagged for a closer look

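In 34 of 508 groups of one named gene in one of the 4 sample groups, a single library stood apart from the rest by Dixon's gap test on log2 CPM. Chance alone gives about 1 in 20 such groups for normally distributed values, which levels near 0 CPM are not. Values below are CPM.

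Library 20 stood apart most often in FoxOTKO. It was high for Myh3 at 1060 (others up to 52.7), Chrna1 at 241, Bgn at 694 and C1qtnf3 at 47.1 (others up to 2.35). It was low for Trim63 at 170, Slc2a4 at 432, Pdk2 at 197, Tspan8 at 2.18, Flt1 at 52.8 and Map2k6 at 26.8. In the same group library 6 was low for Foxo1 at 7 and Acvr2a at 16.6 and high for Slc43a1 at 9.58 and Cebpd at 92.9. Library 16 was high for Mmp12 at 135 (others up to 9.45), and library 10 was low for Dpysl5 at 0.

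Among STZFoxOTlox libraries, library 17 was high for Fbxo31 at 701, Insr at 503, Chrna1 at 63.6 and, near the floor of counting, Chrng at 0.182 (others at 0). It was low for Igfbp5 at 61.6 (others at least 415), Casq1 at 372, Smox at 6.91 and Ache at 6.36. Library 7 was high for Ubr2 at 354 and low for Atp6v0d2 at 0 (others at most 0.182, also near the floor).

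Among STZFoxOTKO libraries, library 8 was high for Cox7c at 565 and Ndufa9 at 362 and low for Castor2 at 25.8, Atg9a at 32.8 and Ptprb at 67.9, and library 18 was low for Hba-a2 at 0. Among FoxOTlox libraries, library 5 was high for Pik3ip1 at 82.7 and library 1 low for Lrrc2 at 107.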

How the results depend on the processing

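The pooled count of 1854 calls stayed within 1.5 times under 11 of 13 settings other than leaving out single libraries: 1261 without the run, 1849 with RLE size factors, 1868 with upper quartile scaling, 2264 by DESeq2, 1892 by limma voom, 1682 without a filter, 1726 at a mean count of at least 10, 1705 without libraries 17 and 18, 1521 without STZ in the model, 1796 as the mean of the state-wise effects and 1487 in runs and states with both genotypes. It moved to 557 without libraries 4, 15, 16 and 20 and to 37 with the macrophage level as a covariate, for which the cause was not tested. Leaving out single libraries gave 1101 (without FoxOTKO library 20) to 2153 (without FoxOTKO library 2). Genes called both in the 1854 and under a setting had the same sign in every setting. The interaction count of 0 became 1 without the run and 15 by DESeq2, and stayed at 0 on leaving out any single library.

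Signs turned with the macrophage level for C1qtnf3 (-1.02), Fstl1 (-0.21), Myl4 (-0.65), Myh3 (-0.19), Casq2 (-0.13), Rpl3 (-0.34), Csf3r (-0.51), Ptprc (-0.68), Mfap5 (-0.05) and Myf5 (-0.03), none of which was called there, and for Hbb-bs without library 8 (-0.03, against 0.26 with all libraries and at most 0.55 without another). The cause was not tested. No replicate number is shared between groups, so no fit was blocked by replicate; the run was in the model, and the fit in runs and states with both genotypes is the one with 1487 calls. Depths of 2951290 to 7687823 counts leave genes near 0 CPM, such as Mymk and Mmp12 in floxed muscle, with few reads, so their fold changes are not given.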

Other observations

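Genes beside the targeted loci were looked at after their values were seen. Within 1 Mb of Foxo1, 4 of 11 other tested genes were called, 2 of 17 beside Foxo3 and 2 of 15 beside Foxo4, where 14.6% of all tested genes were called. Gm38098, a processed pseudogene of 1 exon on chromosome 3 (52425408 to 52425648), lies 72.2 kb beyond the end of Foxo1 on the same strand. It was at 0 to 0.182 CPM in floxed and at 1.02, 5.12 and 15.9 CPM (lowest, median, highest) in knockout libraries, with no overlap (edgeR adjusted p = 1.15e-06), and it was also called with the macrophage level in the model. Setd7 lies 707 kb from Foxo1, and Sesn1 lies 273 kb from Foxo3. Whether the altered loci bear on these neighbours was not tested.

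Several further genes fell without overlap, among them Cbx7, a Polycomb protein (log2 fold change -1.08), Ezh1, a histone methyltransferase (-0.86), and Cbfb, the partner of Runx factors (-1.53). Sort1, the sorting receptor sortilin, fell by 1.35, and Stbd1, which binds glycogen, rose by 1.34, and both were also called with the macrophage level. Mr1, Ccrl2, Tmem140 and Tnfrsf19 fell without overlap as well, by 1.37, 1.69, 1.47 and 1.79 on the log2 scale. With the macrophage level in the model Aebp1 (-2), Hes1 (1.38) and Maob (-2.12) were called too. Those genes were picked after their values were seen.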
